A study of Mus musculus with 19 samples.

Results

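Genes that mark the fetal liver, biliary epithelium or liver progenitor cells were described across 10 mouse liver tumours: Afp, Gpc3, Sox9, Sox4, Epcam, Cd24a, Prom1, Krt7, Krt19 and Spp1. They were listed by symbol, and all 10 of 10 were found by their Ensembl identifiers among the 39179 gene identifiers of the count table. The tumours are the end-stage liver tumours numbered 04 to 13 of a series of 19 samples that holds 13 tumours, 3 control livers and 3 livers given a high dose of virus. The study asked how far such tumours differ within and between mice.

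All mice were male, carried Ctnnb1tm1Mmt on one allele (HET) and were homozygous for Gt(ROSA)26Sortm1(MYC)Djmy. The first is a conditional allele that stabilises β-catenin once Cre has acted, and the other is a human MYC transgene at the Rosa26 locus that Cre switches on. Cre came from the virus AAV8.TBG.PI.Cre.rBG, given at 640000000 genome copies per mouse, in which the TBG promoter limits expression to hepatocytes. The same alleles and virus are thus common to every tumour, and no age is given in the labels. The labels also do not say which tumours shared a mouse. Each column of the count table carries a tag beside the tumour number, and the 10 tumours fall into 5 tags: tumour 04 alone, 05 with 06, 07 with 08, 09 with 10, and 11 with 12 and 13. If a tag stands for a mouse, tumours of the same tag are not independent, and p-values below measure only the spread between these samples. Non-tumour liver was not used here, so no comparison with control tissue is made.

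In mammals, α-fetoprotein (Afp) is the main serum protein of the fetal liver and is silenced after birth, and glypican-3 (Gpc3) is a cell-surface proteoglycan with a similar fetal pattern. Both return in some hepatocellular carcinomas and are used as markers of that tumour. Hepatoblasts, the fetal liver precursors, give rise to hepatocytes and to bile duct cells. Sox9 and Sox4 are transcription factors of the bile duct lineage, Krt7 and Krt19 are its keratins, Epcam, Cd24a and Prom1 encode surface proteins of duct and progenitor cells (Prom1 encodes CD133), and Spp1 encodes osteopontin, a secreted matrix protein made by duct cells and some macrophages.

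Upstream regions are shown for Afp and Gpc3, the oncofetal genes that were highest in the same pair of tumours, and for Spp1, which shared 3 motifs with Afp. The 250 bases before the listed transcription start were taken from RefSeq (GRCm38.p6), with matches to 5 short motifs in capitals: CTTTGA for TCF and LEF factors, CACGTG for MYC, GTTAAT for HNF1, ACAAAG for SOX factors and TATAAA for the TATA box, each searched on both strands so that a reverse match reads as its complement. The Afp region is chr5:90490464-90490713 (forward strand), the Spp1 region is chr5:104434861-104435110 (forward strand) and the Gpc3 region is chrX:52613975-52614224 (reverse strand).
Afp: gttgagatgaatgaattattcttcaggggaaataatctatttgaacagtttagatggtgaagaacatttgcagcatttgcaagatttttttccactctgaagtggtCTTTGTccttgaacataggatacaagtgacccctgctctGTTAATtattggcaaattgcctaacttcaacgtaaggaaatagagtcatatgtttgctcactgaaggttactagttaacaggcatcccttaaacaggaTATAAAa
Spp1: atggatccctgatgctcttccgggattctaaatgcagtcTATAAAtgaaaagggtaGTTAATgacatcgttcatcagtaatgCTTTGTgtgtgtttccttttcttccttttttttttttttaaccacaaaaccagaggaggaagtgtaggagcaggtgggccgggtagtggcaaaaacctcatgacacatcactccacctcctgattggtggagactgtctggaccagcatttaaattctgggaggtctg
Gpc3: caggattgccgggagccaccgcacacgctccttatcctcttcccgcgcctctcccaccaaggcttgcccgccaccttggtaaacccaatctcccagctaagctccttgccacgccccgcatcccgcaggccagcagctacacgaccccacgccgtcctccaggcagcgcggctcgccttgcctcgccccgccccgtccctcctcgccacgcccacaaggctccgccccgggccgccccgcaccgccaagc

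The Afp region held a SOX match 144 bases, an HNF1 match 105 bases and a TATA match 7 bases before the start. In Spp1 the same 3 motifs lay 168 bases (SOX), 194 bases (HNF1) and 211 bases (TATA) before the start. No motif was found in the first listed region of Gpc3, Sox4, Prom1 or Krt7. The second listed region of Prom1 held a TCF and LEF match 9 bases after its start. That of Spp1 held a SOX match 243 bases before its start. Epcam held a CACGTG match 31 bases after its start. Of the 27025 promoters in the RefSeq table (250 bases before to 50 bases after a start), 16.2% held the TCF and LEF letters, 7.24% those for MYC, 7.20% those for HNF1, 18.7% those for SOX and 14.2% the TATA letters. Of the 10 genes, 7 have an entry there. Sox9, Cd24a and Krt19 have none. A match describes letters in the window and is not evidence of binding.

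The libraries held 11687034 to 36964427 counts assigned to genes (median 16664597). Levels are given as CPM, the counts of a gene per 1000000 counts after TMM scaling, a correction for library composition. A value of 3 counts corresponded to 0.0812 to 0.257 CPM before that scaling, a floor that covers counting error only. Of the hepatocyte markers, Alb (albumin) was at 13064 to 23317 CPM in every tumour, but Cps1, a urea cycle enzyme, was at 4.55 CPM in tumour 05 and Pck1, an enzyme of gluconeogenesis, was at 15.8 CPM in tumour 07. Some libraries stood apart. The summed CPM of 4 RNAs that lack a poly(A) tail (Rpph1, Rmrp, Scarna2, Snord13) was 49.7 to 85.4 in tumours 05, 06 and 07 and 2.07 to 8.52 in the other 7. The sum of 4 Y-linked genes (Ddx3y, Eif2s3y, Kdm5d, Uty) was 21.6 to 76.6 CPM in 8 tumours, but 4.61 CPM in 05 and 7.47 CPM in 13, although all mice are labelled male. Xist, an RNA of female cells, was at 0.256 CPM (4 counts) in 05 and 0.155 CPM (6 counts) in 13. Its highest value was 1.33 CPM in tumour 04. The cause of the low Y-linked sums was not tested. Erythroid genes summed to 2623 CPM in tumour 07 and at most 584 CPM elsewhere. The main counts and correlations are also given without these tumours, and their part in other results was not tested.

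The oncofetal genes Afp and Gpc3 had their highest levels in the same pair of tumours, 09 and 13, and their lowest in tumour 05. Afp (ENSMUSG00000054932, chr5:90490714-90508907, GRCm38.p6, forward strand) was at 25.5 ± 37.8 CPM (SD, n = 10). Its lowest value was 2.05 CPM in tumour 05, its median 9.23 CPM and its highest 124.7 CPM in tumour 13, a 60.9-fold range. Tumour 09, at 52.6 CPM, was the only other tumour above 20 CPM, while the other 8 lay between 2.05 and 19.9 CPM.

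Gpc3 (ENSMUSG00000055653, chrX:52272426-52613974, reverse strand) was at 18.3 ± 23.3 CPM. It rose from 0.768 CPM in tumour 05 over a median of 9.86 CPM to 62.0 CPM in tumour 09 and 59.6 CPM in tumour 13, an 80.7-fold range between the extremes. Unlike Afp, it was also at intermediate levels in tumours 07 (15.9 CPM), 08 (18.2 CPM) and 11 (12.2 CPM), where Afp was at 7.17, 7.94 and 6.06 CPM. Across the 10 tumours, Afp and Gpc3 had Pearson's r = 0.71 (permutation p = 0.0193, adjusted p = 0.174 over 45 gene pairs; rho = 0.60), and r was 0.41 without tumours 05 and 13 and 0.32 without tumours 09 and 13, so that it did not hold without either pair. It was 0.77 on deviations from the tag means and 0.68 in the 7 tumours low in RNA without a poly(A) tail.

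Other fetal genes were taken from a list of 15 oncofetal and hepatoblast genes. The 3 most abundant were H19, an imprinted noncoding RNA, Scd2, a fatty acid desaturase of the fetal liver, and Igf2, a fetal growth factor. H19 also had its top values in tumours 09 (6971 CPM) and 13 (2879 CPM). Igf2 reached 1489 CPM in tumour 09 alone, and in tumour 13 it was at 4.52 CPM. Scd2 was lowest in tumour 06 (85.2 CPM) and highest in tumours 04 (675 CPM) and 13 (667 CPM). Lin28b was at 0 in every tumour and Dlk1, a hepatoblast surface protein, was at most 0.181 CPM.

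The RNAs of 3 proteins that silence Afp after birth had narrow ranges. Zbtb20 lay between 72.9 and 118.9 CPM, Zhx2 between 18.2 and 45.1 CPM and Zfhx3 between 19.1 and 38.3 CPM. Zhx2 was highest in tumour 05, the tumour with the least Afp, and lowest in tumour 12, where Afp was at 10.5 CPM. The neighbours of Afp in the albumin gene cluster, Alb, Gc and Afm, differed by at most 2.42-fold between tumours. In the glypican family Gpc1 had the highest mean, with 8.55 CPM in tumour 12 and 95.6 to 422 CPM in the other 9, Gpc4 lay between 29.6 and 69.6 CPM, and Gpc6 between 0.442 and 8.53 CPM.

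**Figure D1:**
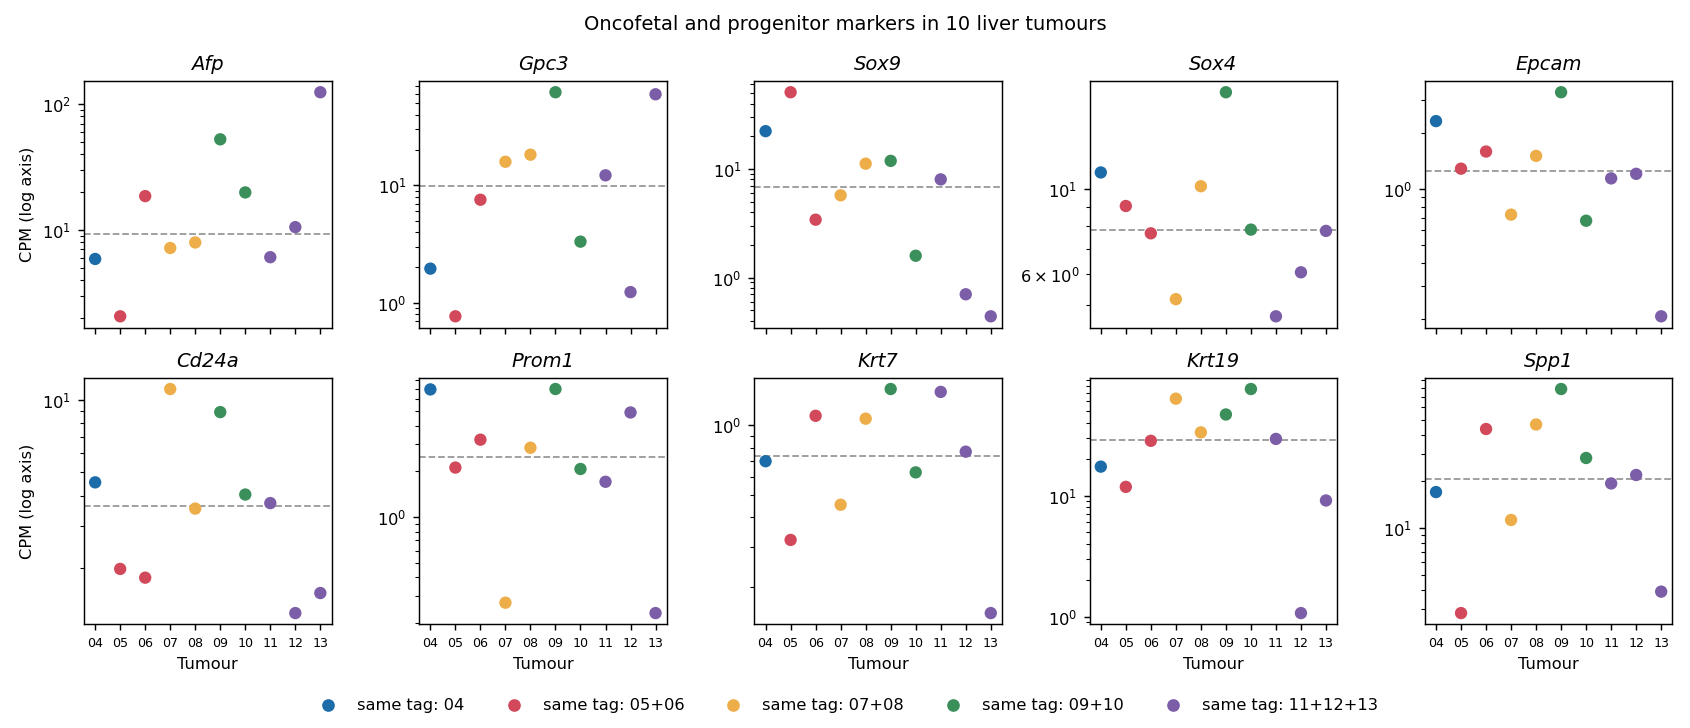
CPM of each of the 10 genes (log vertical axes, which differ between panels) in tumours 04 to 13. Each point is 1 tumour, colours mark tumours with the same tag, and the dashed line is the median. Tumour 09 is among the 3 highest tumours in all 10 panels, and tumours of the same colour often lie far apart.

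The transcription factors behaved differently from each other. Sox9 (ENSMUSG00000000567, chr11:112782210-112787757, forward strand) had the widest range of the 10 genes, at 11.6 ± 15.3 CPM. It was lowest in tumour 13 with 0.439 CPM (17 counts), had a median of 6.87 CPM and was highest in tumour 05 with 50.8 CPM (794 counts), a 116-fold range. Tumour 04 followed at 22.3 CPM, and tumour 12, with 0.701 CPM, was almost as low as tumour 13. In tumour 13 Sox9 lay 3.67 log2 units below the other tumours, although the median of 1047 other genes of chromosome 11 lay 0.27 above them. Tumour 05 thus had the most Sox9 and the least Afp and Gpc3, and tumour 13 the reverse for Sox9 and Afp. The correlation of Afp with Sox9 was r = -0.67 (permutation p = 0.0344, adjusted p = 0.204; rho = -0.67) and did not pass the threshold after adjustment. It was -0.82 without tumours 09 and 13, -0.60 on deviations from the tag means and -0.52 in the 7 tumours low in RNA without a poly(A) tail. Leaving out tumour 09 alone gave -0.84, which passed the threshold after adjustment. Without tumours 05 and 13 together r was -0.17 (exact permutation p = 0.699), so the relation was not seen once both were left out.

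Sox4 (ENSMUSG00000076431, chr13:28948919-28953699, reverse strand) varied least, at 8.73 ± 3.79 CPM. It ranged from 4.67 CPM in tumour 11 over a median of 7.81 CPM to 17.8 CPM in tumour 09, a 3.82-fold range. It was the only marker with less than a 5-fold range. Of the 9 other SOX genes examined, Sox13 (11.1 to 24.5 CPM), Sox12 (3.72 to 39.8 CPM) and Sox6 (9.40 to 19.3 CPM) had the highest means, and Sox2 was at 0 in all tumours.

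The 3 surface markers were low. Epcam (ENSMUSG00000045394, chr17:87635979-87651127, forward strand), an epithelial adhesion molecule, was at 1.39 ± 0.88 CPM, with 0.207 CPM in tumour 13 (8 counts), a median of 1.24 CPM and 3.29 CPM in tumour 09 (53 counts). Prom1 (ENSMUSG00000029086, chr5:43993621-44102047, reverse strand) was at 3.12 ± 2.42 CPM. Its lowest value was 0.233 CPM in tumour 13, its median 2.48 CPM and its highest 6.96 CPM in tumour 09, closely followed by tumour 04 at 6.91 CPM. Tumour 07 had only 3 counts of Prom1 (0.272 CPM). Tumours 07 and 13 stood below the other 8, the lowest of which was tumour 11 at 1.70 CPM. In tumour 07 Prom1 lay 2.84 log2 units below the other tumours, beside a median of -0.27 over 785 other genes of chromosome 5.

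Cd24a (ENSMUSG00000047139, chr10:43579169-43584265, forward strand), a heavily glycosylated surface protein, was at 4.25 ± 3.26 CPM. It was lowest in tumour 12 at 1.30 CPM, had a median of 3.63 CPM and was highest in tumours 07 (11.1 CPM) and 09 (8.88 CPM). Tumours 05, 06, 12 and 13 formed the low end, between 1.30 and 1.99 CPM. In tumour 13 the median of 593 other genes of chromosome 10 lay 0.35 log2 units below the other tumours, while Cd24a lay 1.17 below. Part of the Cd24a transcript matches a processed pseudogene, Gm6212, at 96.8% over 218 bases, so some of its reads may be uncertain.

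The keratins of bile ducts differed widely in level. Krt19 (ENSMUSG00000020911, chr11:100140810-100145926, reverse strand) was at 31.6 ± 24.1 CPM. It had a median of 28.8 CPM and was highest in tumours 10 (75.8 CPM) and 07 (63.1 CPM), but was at 1.07 CPM (32 counts) in tumour 12. The next lowest tumour, 13, had 9.10 CPM. Krt7 (ENSMUSG00000023039, chr15:101412403-101427806, forward strand) was at 0.80 ± 0.44 CPM, from 0.155 CPM in tumour 13 (6 counts) over a median of 0.733 CPM to 1.43 CPM in tumour 09 (23 counts). Its counts were 5 to 23 in every tumour, so its counting error is large.

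Per kilobase of exon, Krt7 was at 0.113 CPM and Krt19 at 17.0 CPM on average, whereas the keratins that hepatocytes also make, Krt8 and Krt18, were at 549 and 879 CPM. Krt8 and Krt18 were highest in tumour 05 (2380 and 2552 CPM) and lowest in tumour 12 (433 and 634 CPM). Tumour 12 was lowest in Krt8, Krt18 and Krt19 alike. Krt20 was at 0.304 to 10.0 CPM.

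Spp1 (ENSMUSG00000029304, chr5:104435111-104441053, forward strand), which encodes osteopontin, was at 27.4 ± 23.3 CPM. It was lowest in tumours 05 (2.82 CPM) and 13 (3.88 CPM), had a median of 20.7 CPM, and was highest in tumours 09 (78.9 CPM), 08 (46.6 CPM) and 06 (43.5 CPM). Of its receptors the most abundant were Itgb1 (128.5 to 245 CPM), Itgb5 (121.5 to 176 CPM) and Itga5 (46.9 to 69.8 CPM). Among the same 10 receptor genes Cd44 was lowest in tumour 12, at 6.88 CPM, and lay between 22.8 and 59.1 CPM in the others (chosen after its values were seen).

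On the scale of CPM per kilobase of exon, the mean levels were in the order Krt19 (17.0), Spp1 (9.62), Afp (7.40), Gpc3 (6.09), Sox9 (2.78), Sox4 (1.82), Cd24a (1.64), Epcam (0.537), Prom1 (0.402) and Krt7 (0.113). By medians Gpc3 (3.29) stood above Afp (2.67). The ranges over the 10 tumours overlapped between all neighbours in this order. Compared within each tumour, Cd24a was above Epcam in 10 of 10 tumours, and Spp1 above Afp and Prom1 above Krt7 in 9 of 10. The other 6 pairs of neighbours kept this order in 5 to 8 of the 10 tumours.

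**Figure D2:**
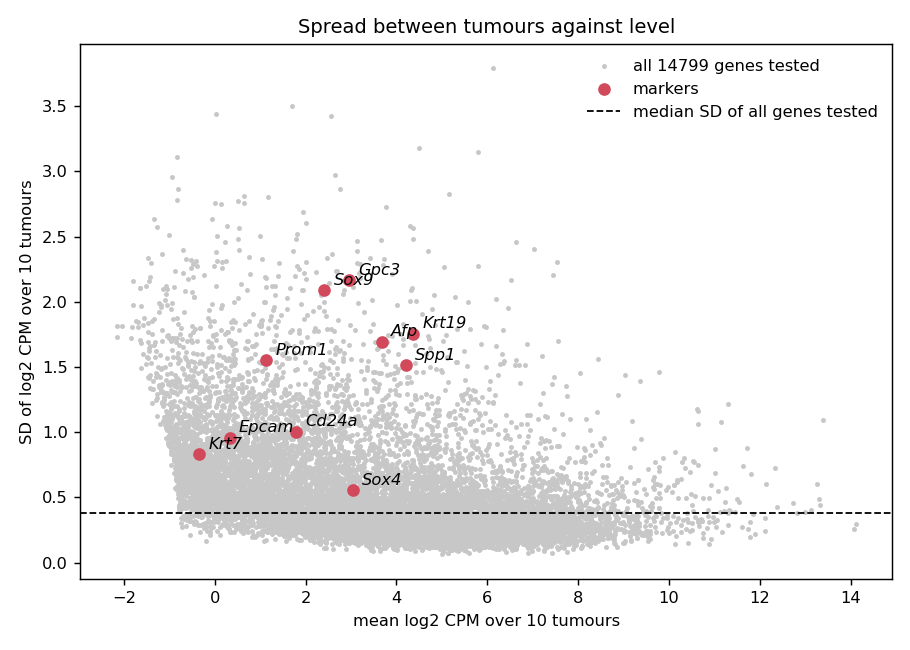
SD of log2 CPM over the 10 tumours (vertical) against mean log2 CPM (horizontal) for the 14799 genes with a mean of at least 0.5 CPM, with the 10 markers in red and the median SD of all genes as a dashed line. All 10 markers lie above the line at 0.38, and Gpc3 and Sox9 lie highest among them.

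Most of the markers varied far more between tumours than a typical gene. The SD of log2 CPM (prior count 2) was above 1 in 7 of 10 genes, with Cd24a at 1.00 just past that limit, against 10.4% of the 14799 genes tested, and the median SD was 1.53 against 0.38. By gene, the SD was 2.17 for Gpc3, 2.09 for Sox9, 1.75 for Krt19, 1.69 for Afp, 1.55 for Prom1 and 1.52 for Spp1, which put these 6 genes between the 96.9th and 99.3rd percentile of all genes. Cd24a, Epcam (0.96), Krt7 (0.83) and Sox4 (0.56) lay between the 70.0th and 89.7th percentile. The genes compared were not matched for level, and the markers were chosen with earlier results of these data known, so this is a description. Without tumours 05 and 13, 6 of 10 genes had an SD above 1 (9.98% of all genes), and without tumours 05, 06 and 07, 7 of 10 (8.85%). Without tumour 12 the SD of Krt19 was 1.04.

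The tumours differed in which markers were high. Tumour 09 had the highest value in 6 of 10 genes (Gpc3, Sox4, Epcam, Prom1, Krt7 and Spp1) and was among the 3 highest tumours in 10 of 10. Over all genes tested it was highest in 11.1% and among the 3 highest in 32.0%. In tumour 09 the stellate and fibroblast list summed to 1758 CPM (240 to 1603 CPM in the others), the macrophage list to 270.5 CPM (39.3 to 302 CPM), the mesothelial list to 6.71 CPM (2.07 to 6.34 CPM) and the 8 β-catenin targets to 6183 CPM, the lowest of all tumours, with Glul at 5298 CPM. The mean log2 CPM of the bile duct list was also highest in tumour 09 (1.52) and lowest in tumour 13 (-0.03), while its summed CPM was 167 in tumour 09 and highest in tumour 10 (321). The part of duct, mesothelial and stromal cells in the values of tumour 09 was not tested. In bulk RNA, fewer cells of a type and less RNA per cell cannot be told apart.

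Tumour 13 was the opposite of tumour 09 in most duct and progenitor markers while sharing its high Afp and Gpc3. It had the highest Afp, and the lowest value in 4 of 10 genes (Sox9, Epcam, Prom1 and Krt7). It was among the 3 lowest tumours in 7 of 10 genes, against 28.3% of all genes tested. Tumour 05 had the highest Sox9 and the lowest Afp, Gpc3 and Spp1. Its macrophage list summed to 39.3 CPM, the lowest of the 10, against 105 to 302 CPM in the others. Tumour 12 was lowest in Cd24a and Krt19, and tumour 07 was highest in Cd24a and near the bottom in Prom1.

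**Figure D3:**
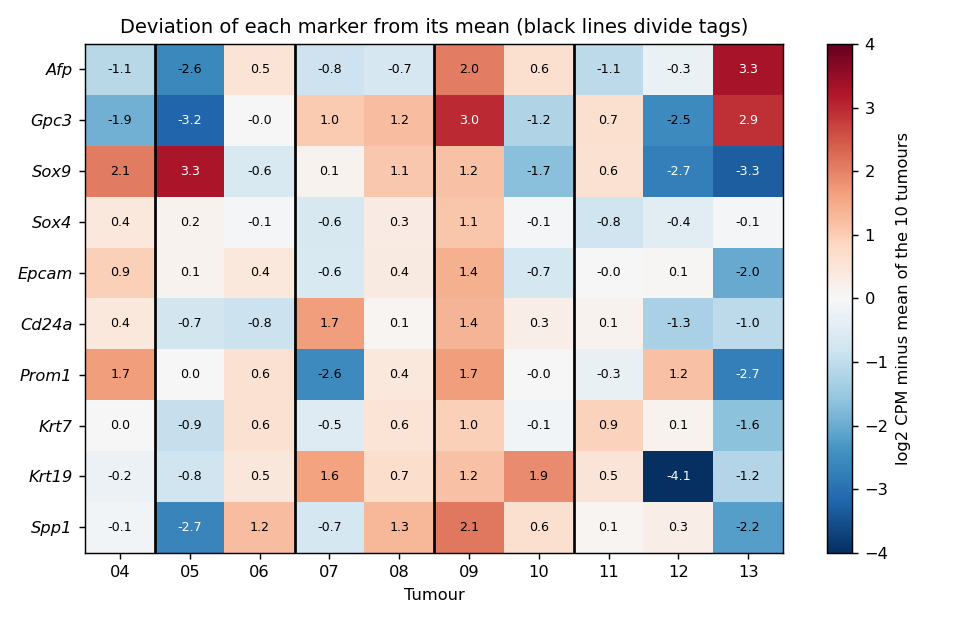
Log2 CPM of each gene (rows) in each tumour (columns) minus the mean of that gene over the 10 tumours, with red above and blue below the mean. Tumour 09 is above the mean in all 10 rows, and Krt19 in tumour 12 is the lowest cell of the map.

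Tumours with the same tag differed by large folds in many markers. Tumours 05 and 06 differed 15.4-fold in Spp1 (2.82 and 43.5 CPM), 14.9-fold in Sox9 (50.8 and 3.41 CPM) and 9.06-fold in Afp (2.05 and 18.6 CPM). Tumours 09 and 10 differed 18.7-fold in Gpc3 (62.0 and 3.32 CPM). Among tumours 11, 12 and 13, Gpc3 differed 48.3-fold between 12 and 13, Krt19 27.5-fold between 11 and 12, Prom1 20.9-fold between 12 and 13 and Afp 20.6-fold between 11 and 13. Tumours 07 and 08 were close in Afp (7.17 and 7.94 CPM) and in Gpc3 (15.9 and 18.2 CPM). They differed 4.14-fold in Spp1 (11.3 and 46.6 CPM) and 3.13-fold in Cd24a (11.1 and 3.53 CPM), and Prom1 was at 0.272 CPM (3 counts) in 07 and 2.86 CPM in 08.

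The median absolute difference over the 6 same-tag pairs exceeded that over the 39 other pairs in 8 of 10 genes, and in 40.9% of all genes tested. Its median over the markers was 1.78 log2 units within tags and 1.30 between tags, and over all genes 0.34 and 0.39. A median of 64.1% of the sum of squares of the markers lay within tags, against 46.5% for all genes, with the highest share in Krt7 (91.8%) and the lowest in Cd24a (34.6%). Whether these shares differ from those of other genes was not tested.

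In edgeR's quasi-likelihood F test over the 5 tags, with Benjamini-Hochberg adjustment over 14799 genes, 0 of 10 markers passed an adjusted p of 0.05, against 0.75% of all genes (111 genes). At an unadjusted p under 0.05 it was again 0 of 10 markers, against 14.5% of all genes. The smallest value among the markers was that of Cd24a (p = 0.0541, adjusted p = 0.353). With DESeq2's likelihood ratio test 0 of 10 markers passed, against 9.35% of all genes, and Cd24a alone had an unadjusted p under 0.05 (adjusted p = 0.0907), against 19.4% of all genes. The count of all genes called moved between 10 without tumour 05 and 204 without tumour 10, and was 0 without tumours 05 and 13, while 0 markers were called under every setting run, of which filterByExpr tested 6 of the 10.

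None of the 74 tested genes of the 11 related lists (fetal genes, Afp repressors, glypicans, SOX genes, keratins, Notch, YAP and TAZ, osteopontin receptors, junction partners of Epcam, the albumin cluster and β-catenin targets) was called between tags by edgeR, and 13 had an unadjusted p under 0.05, against 14.5% of all genes tested. By DESeq2 14 of the 74 were called, against 9.35% of all genes, among them Krt8, Krt18, Igf2, Scd2, Sox5 and Sox12. In the Notch pathway, which drives duct fate, the most abundant of 10 genes were Notch1 (45.3 to 96.8 CPM), Notch2 (28.3 to 54.8 CPM) and its target Hes1 (5.72 to 19.4 CPM). Of 11 YAP and TAZ pathway genes the most abundant were Yap1 (67.3 to 103.0 CPM), Ccn1 (9.28 to 134 CPM) and Wwtr1, which encodes TAZ (22.7 to 74.2 CPM). Of the junction partners of Epcam, Cldn3 lay between 206 and 356 CPM, Cldn2 between 137 and 283 CPM, and Cdh1, which encodes E-cadherin, between 0.982 CPM in tumour 13 and 58.7 CPM in tumour 09. Of the β-catenin targets, Glul ranged from 5298 to 14779 CPM, Lect2 from 124.6 to 580.1 CPM and Nkd1 from 105 to 596 CPM.

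**Figure D4:**
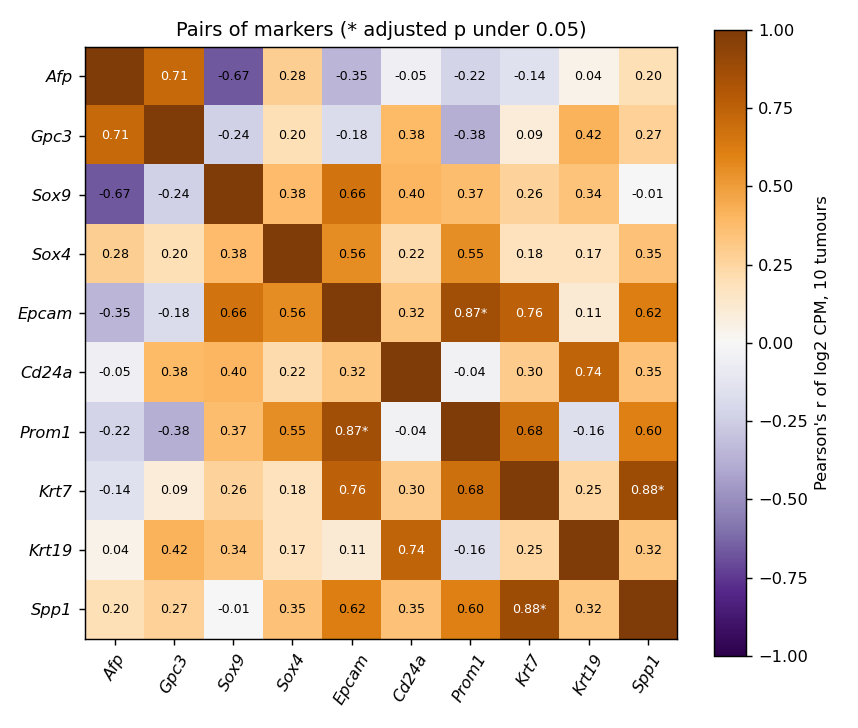
Pearson's r of log2 CPM over the 10 tumours for the 45 pairs of markers, with orange for positive and purple for negative values. Epcam with Prom1 and Krt7 with Spp1 are the 2 pairs with an adjusted p under 0.05, and Afp with Sox9 has the most negative value.

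Pairs of duct and progenitor markers had the highest correlations across tumours. Of the 45 pairs, 34 had a positive r, 8 had a permutation p under 0.05 and 2 had an adjusted p under 0.05. These were Epcam with Prom1 (r = 0.87, p = 0.00059, adjusted p = 0.0227, permutation test with 100000 resamples) and Krt7 with Spp1 (r = 0.88, p = 0.00101, adjusted p = 0.0227, same permutation test). By ranks no pair passed, with rho = 0.89 (adjusted permutation p = 0.0585) for Epcam with Prom1 and rho = 0.81 (adjusted permutation p = 0.153) for Krt7 with Spp1.

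After leaving out the 2 tumours farthest from the Epcam median (09 and 13) its r with Prom1 was 0.74 (exact permutation p = 0.0324), and without those farthest in Krt7 (05 and 13) its r with Spp1 was 0.71 (exact permutation p = 0.0533). On deviations from the tag means the values were 0.88 and 0.90, and within the 7 tumours low in RNA without a poly(A) tail 0.93 and 0.86, where no pair passed the adjusted threshold. Epcam with Prom1 also lost its call, with r between 0.77 and 0.93, when tumour 04, 06, 07, 08 or 13 was left out. For Krt7 with Spp1 this held for tumour 04, 06, 07, 08, 09 or 13, with r between 0.84 and 0.88. Without tumours 05 and 13 together r was 0.77 and 0.71, and neither passed (adjusted exact permutation p = 0.312 and 0.395).

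The other 6 pairs with an unadjusted p under 0.05 were Epcam with Krt7 (r = 0.76), Cd24a with Krt19 (r = 0.74), Afp with Gpc3, Prom1 with Krt7 (r = 0.68), Afp with Sox9, and Sox9 with Epcam (r = 0.66). None of them passed the adjustment, with adjusted permutation p between 0.130 and 0.204. Krt19 had r = 0.25 with Krt7, its fellow duct keratin, and r = 0.11 with Epcam.

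**Figure D5:**
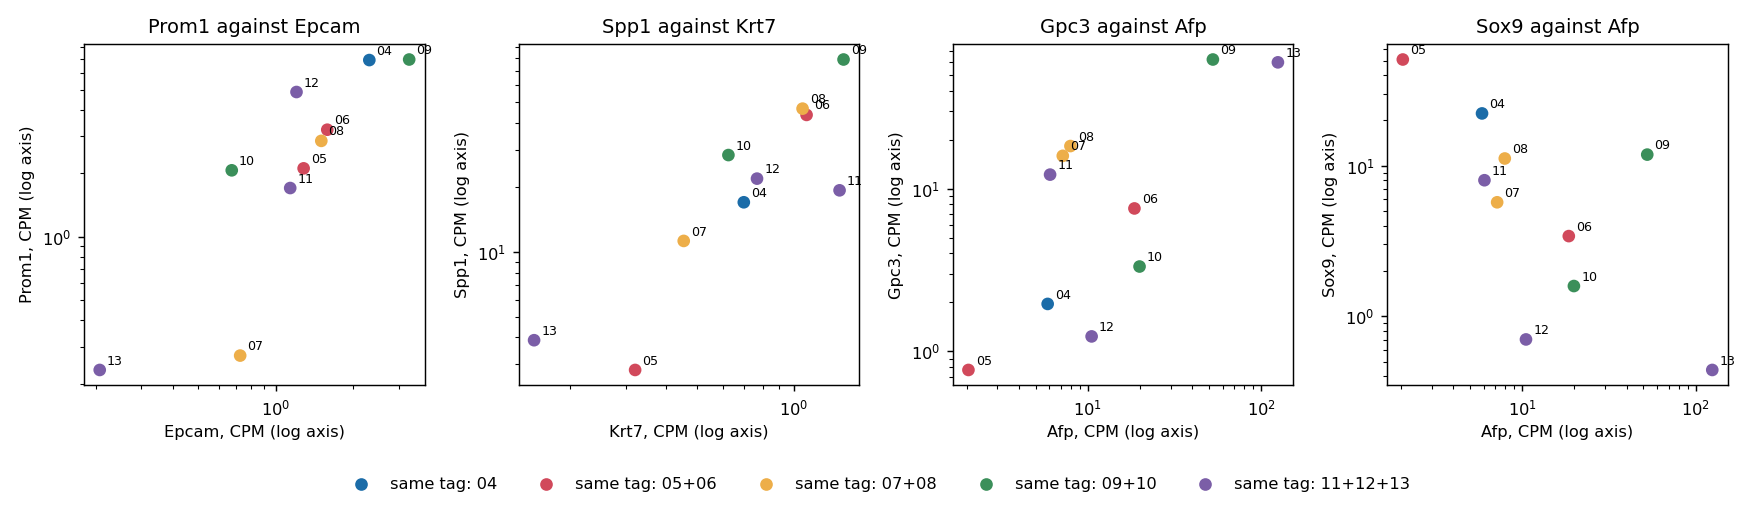
CPM of 4 pairs of markers in the 10 tumours (log axes), with tumour numbers beside the points and colours for tags. Prom1 follows Epcam and Spp1 follows Krt7 over most tumours, Gpc3 is high with Afp in tumours 09 and 13, and Sox9 is highest in tumour 05, where Afp is lowest, and lowest in tumour 13, where Afp is highest.

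Because bulk tumour RNA includes ducts, stroma and immune cells, each marker was correlated with the mean log2 CPM of 6 lists of cell type markers. Of 60 such relations 0 had an adjusted p under 0.05, by Pearson's r or by rho, and 12 had an unadjusted permutation p under 0.05. The strongest was Spp1 with the bile duct (cholangiocyte) list (r = 0.79, permutation p = 0.0053, adjusted p = 0.125; rho = 0.73), followed by Spp1 with the mesothelial list (r = 0.76), Cd24a with the stellate and fibroblast list (r = 0.76) and Spp1 with the macrophage list (r = 0.75), each with an adjusted permutation p of 0.125. Spp1 with the hepatocyte list (r = 0.74, rho = 0.78) and Prom1 with the duct list (r = 0.74, rho = 0.75) came next, also with an adjusted permutation p of 0.125. Without tumours 05 and 13, r for Spp1 was 0.72 (duct list), 0.52 (mesothelial list), 0.28 (macrophage list) and 0.53 (hepatocyte list).

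Within the 7 tumours low in RNA without a poly(A) tail, 3 relations passed (adjusted exact permutation p under the threshold): Sox4 with the stellate and fibroblast list (r = 0.96, adjusted exact permutation p = 0.0119), Sox4 with the endothelial list (r = 0.95, adjusted exact permutation p = 0.0119) and Spp1 with the mesothelial list (r = 0.92, adjusted exact permutation p = 0.0317). Over all 10 tumours these were 0.54, 0.34 and 0.76. In the 8 tumours left without 09 and 11, the tumours farthest from the Sox4 median, r was -0.09 for Sox4 with the stellate and fibroblast list and -0.17 with the endothelial list, and without 05 and 13 r was 0.52 for Spp1 with the mesothelial list (adjusted exact permutation p = 0.604). The setting of 7 tumours was chosen after the data were seen.

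The defining duct genes Cftr and Sctr were near 0. Cftr was at 0 to 0.497 CPM and Sctr at 0 to 0.145 CPM, and of the 12 genes of the duct list between 0 and 3 were at 0 counts in a tumour. The list summed to 63.2 to 321 CPM, of which Aqp1, which endothelial cells also make, gave 19.9 to 255 CPM. Bicc1 was at 4.99 to 22.2 CPM. Mesothelial genes summed to 2.07 to 6.71 CPM. The macrophage list was led by Lyz2, Cd5l and Csf1r, the endothelial list by Cdh5, Stab2 and Pecam1, the stellate and fibroblast list by Col1a1, Col3a1 and Col1a2, and the hepatocyte list by Alb, Cyp2e1 and Apoa1. How much of any marker came from these cells was not tested.

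For each marker the 3 genes with the most similar pattern were sought among 14578 tested genes with a symbol, by Pearson's r of log2 CPM over the 10 tumours, as a description. For Krt19 these were Mal (r = 0.97), Tbx4 (r = 0.96) and Wdsub1 (r = 0.92). Tbx4, a T-box transcription factor, was at 0.0668 CPM in tumour 12 and 52.3 CPM in tumour 07, and so was low in the same tumour as Krt19. Krt7 and Spp1 shared 2 of their 3 genes, Scara3 (r = 0.94 and 0.93) and Tspan8 (r = 0.93 and 0.90), a tetraspanin. The remaining gene was Csf2rb (r = 0.93) for Krt7 and Ror1 (r = 0.91) for Spp1.

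Prom1 was followed most closely by Smpdl3b (r = 0.95), Adrb3 (r = 0.93) and Cdh1 (r = 0.92), and Epcam by Rnf34 (r = 0.95), Wfdc2 (r = 0.89) and Perp (r = 0.87). Cdh1 was near 1 CPM in tumours 07 (1.09 CPM) and 13 (0.982 CPM), the same 2 tumours in which Prom1 was lowest. Sox9 was followed by Arrb1 (r = 0.94), Bcl10 (r = 0.93) and Pde4a (r = 0.92), Sox4 by Arap2 (r = 0.94), Vps29 (r = 0.93) and Sp3os (r = 0.90), and Cd24a by Calcrl (r = 0.95), Fbln2 (r = 0.93) and Nuak1 (r = 0.92). For Afp they were Zfp174 (r = 0.94), Gm14016 (r = 0.91) and Galk2 (r = 0.90), and for Gpc3 Vps25 (r = 0.91), Cand2 (r = 0.90) and Sfxn1 (r = 0.88). Neither oncofetal gene was among the 3 most similar to the other.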

How the data were processed

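RNA was sequenced from bulk tumours with a stranded mRNA kit. The authors deposited 1 table of raw read counts per gene. The submitters' processing notes name TopHat2, HTSeq and GRCm38; counting options, strand use included, are not given in the sources used here. Of its 19 columns, 9 could not be matched to 1 sample title and were not used; for the other 10, numbers in titles were taken as library numbers. The 5 summary lines (no feature, not unique and the like), 51.7% to 66.0% of each column, were left out.

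Symbols and exon lengths came from GENCODE M39 by stable identifier (87.3% of identifiers have a symbol), and coordinates from RefSeq GRCm38.p6 by symbol. Genes with a mean of at least 0.5 CPM (14799, all 10 markers among them) were tested in edgeR 4.0.16 (R 4.3.3; DESeq2 1.42.0 as alternative). All 10 markers, the 3 most abundant genes of each list and the 3 genes most like each marker were named, except that some genes of the lists are not reported here. Markers and lists were chosen with earlier results of these data known. Correlations used two-sided permutation tests in Python 3.11.15 (100000 resamples, or all permutations for 7 or 8 tumours). Both tests were first tested on simulated data. Part of Prom1, Krt19, Sox9, Sox4 and Spp1 also overlaps or resembles noncoding transcripts, and part of Prom1 and Cd24a the coding genes B3gntl1 (98.0% over 256 bases) and Mtres1 (100% over 112 bases), so their reads may be uncertain.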

Additional observations from a re-analysis of the deposited data

Results flagged for a closer look

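The lowest value of Krt19, in tumour 12, stood apart from the other tumours. The gap to the next lowest tumour, 13, was 0.494 of the whole range on the log2 scale, above the 95% critical value of Dixon's test for 10 samples. The levels were 1.07 CPM (32 counts) and 9.10 CPM (352 counts). On the CPM scale the gap at the low end was not examined, and the high end had gaps of 0.588 for Afp, 0.567 for Sox9 and 0.516 for Sox4, also above that critical value, so which gene stands apart depends on the scale. On the log2 scale both ends of all 10 genes were examined. Chance alone flags about 1 gene in 20, so 1 flag among 10 genes can arise by chance. Without tumour 12 the SD of Krt19 fell to 1.04 from 1.75 log2 units.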

How the results depend on the processing

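The correlations with an unadjusted p under 0.05 kept their sign under the alternatives run. Some weaker ones did not. For example, r went from 0.11 to -0.34 for Epcam with Krt19 without tumours 09 and 13, from 0.34 to -0.82 for Sox9 with Krt19 without tumours 12 and 13, and from 0.54 to -0.09 and 0.34 to -0.17 for Sox4 with the stellate and fibroblast and the endothelial lists without tumours 09 and 11. Under every alternative run 0 markers passed the test between tags, of which filterByExpr tested 6 of the 10. The number of all genes called between tags (111) was 1383 with DESeq2's likelihood ratio test, 62 with edgeR's filterByExpr filter, 525 with no filter on low counts, 5 with the families of tags, 0 without tumours 05 and 13 (1021 at an unadjusted p under 0.05) and 6 without tumours 05, 06 and 07. Leaving out 1 tumour gave 10 to 204 (10 without 05, 13 without 11, 31 without 12, 32 without 13, 41 without 07, 52 without 06, 72 without 08, 184 without 04 and 204 without 10). The number of correlated pairs of markers (2) was 0 by Spearman's rho, 0 within the 7 tumours low in RNA without a poly(A) tail, 0 without tumours 05 and 13, and 0 to 2 with 1 tumour left out. The number of relations with cell type lists (0) was 3 without tumours 05, 06 and 07, and 0 to 2 with 1 tumour left out (1 without 06, 2 without 07). The cause of these changes was not tested. Settings that leave out several tumours were chosen after the data were seen, except that of 7 tumours for pairs of markers. No paired analysis was possible because the control columns were not used and 1 group was left. Epcam, Krt7 and Prom1 are limited by depth, with counts as low as 8, 5 and 3 in a tumour.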

Other observations

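The 6 proliferation genes ranked the tumours in another order than the markers. Their sum was lowest in tumour 04 (113 CPM) and highest in tumour 08 (289.5 CPM), with Mki67 between 27.9 and 101 CPM. Tumour 09, high in most markers, was at 173 CPM. Metabolic hepatocyte genes had wider ranges than Alb, which differed 1.78-fold between tumours. Cps1, an enzyme of the urea cycle, lay between 4.55 CPM (tumour 05) and 221.5 CPM (tumour 12), and Pck1, an enzyme of glucose synthesis, between 15.8 CPM (tumour 07) and 395 CPM (tumour 08). The sum of 4 neutrophil genes was 25.4 CPM in tumour 06, against 8.84 CPM or less in the other 9. Lymphocyte genes summed to at most 4.54 CPM.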
